A study of Saccharomyces cerevisiae with 16 samples.

Results

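Cells homozygous for a deletion of *IME2* were followed from 2 to 6 h after meiotic induction, to see which transcripts still moved when the kinase was missing. The 6 arrays used are those labelled ime2D (*ime2Δ* in the text) at 2, 4 and 6 h, with 2 arrays at each time, out of 16 in the series. They were picked by label alone, and the 6 h arrays were set against the 2 h arrays with 4 h read as the point between. The 6 WT arrays at the same times served to test where the change without *IME2* differed from the change with it. The *ime2Δ* strain (YGB221) and the WT strain (DSY1089) are MATa/MATα diploids that share ho::LYS2, lys2, ura3, leu2::hisG and trp1::hisG on both homologs and arg4-BglII/arg4-NspI with his4B/his4X. YGB221 differs by ime2Δ::TRP1 on both homologs, so it also carries a *TRP1* marker that WT cells lack. *IME2* and *TRP1* were therefore left out, which leaves 6254 genes. Each strain is a single diploid, and cells were pre-grown with acetate before transfer to an acetate sporulation medium.

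Meiotic entry in budding yeast runs as a cascade of transcription. Nutrient and mating-type signals converge on the activator Ime1, which turns on early genes for pre-meiotic DNA replication, chromosome axes and recombination, and *IME2* is itself one of them. The Ime2 kinase promotes pre-meiotic S phase and expression of *NDT80*, whose product switches on the middle genes for the meiotic divisions and spore formation. Cells without *IME2* enter S phase late and rarely form spores.

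All values are log2 signals relative to the median of the array, so that 0 is the level of the middle gene and a difference of 1 is a factor of 2. Within each group the arrays correlated at r between 0.988 and 0.994 over genes, and on each array between 6005 and 6181 genes stood well above background. The arrays of replicate 1 lay on one slide and those of replicate 2 on another. On both slides a given time took the same position, and a given strain the same column, so time and slide position, and strain and slide column, cannot be told apart. The study's results describe the replicates as biological, and whether the times of a replicate number come from 1 culture is not given in the sources used here. Calls were made in limma where the p-value, adjusted by Benjamini and Hochberg over all 6254 genes, was under 0.05. The cells were diploid by genotype, and the 9 haploid cell markers set for the check were all well above background, with 3 higher and 0 lower at 6 h than at 2 h. Their levels were summed as unlogged signals, so *GPA1* and *MFA1*, both among the 3, set most of the sum. The summed level stood at a log2 of 2.24 and 2.34 at 6 h, against 1.17 and 1.27 at 2 h. Of 6 markers of dividing cells 0 were higher and 1 was lower, with summed levels of 0.58 and 0.68 at 6 h, against 0.65 and 1.06 at 2 h. Of 7 markers of cells past prophase 1 was higher and 0 were lower, at 0.18 and 0.49 at 6 h, against -0.15 and 0.04 at 2 h. In total RNA from whole cultures, a change in the number of cells of a type and a change in RNA per cell cannot be told apart.

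Transcript levels kept moving after 2 h without *IME2*, though over a narrower range than with it. Between 2 and 6 h, 625 genes (9.99%) passed the threshold in *ime2Δ* cells, of which 357 (5.71%) were higher and 268 (4.29%) lower. The log2 changes of all genes had an SD of 0.54 in *ime2Δ* cells, against 1.53 in WT cells, where 3936 genes (62.9%) passed, 1904 (30.4%) higher and 2032 (32.5%) lower. The early meiotic genes led the rises, with 25 of 34 called. Of the 50 genes with the lowest changes 9 were on the vegetative cell wall list, 8 on the amino acid biosynthesis list and 3 on the iron regulon list. With the replicate number as a block 971 genes were called. With 1 array left out in turn, which takes the lone array left at that time to vary like the other groups, the count was 223 and 298 without the 2 h arrays of replicate 1 and 2, and 286 and 406 without the 6 h arrays. In all 4 of these fits 97 of the 357 rises and 73 of the 268 falls were called.

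Genes picked for a large difference between 2 and 6 h will mostly have a 4 h level between the others, and over all genes 3546 of 6254 did. Of the 357 genes that rose, 350 (98.0%) had their 4 h mean between those of 2 and 6 h, with a median of 61.6% of the change made by 4 h. Of the 268 that fell, 264 (98.5%) did so, with a median of 59.1% made by 4 h. Already at 4 h against 2 h, 86 genes (1.38%) passed, with 36 (0.576%) higher and 50 (0.799%) lower. From 4 to 6 h limma called 0 genes, while 386 (6.17%) had an unadjusted p under 0.05, so no gene could be said to turn at 4 h. The 4 h arrays of the *ime2Δ* cells did not sit at the same point: in 33 of 34 early meiotic genes the array of replicate 2 was higher than that of replicate 1, by a median of 0.67, where the same was true of 53.7% of all genes. At 6 h the median difference between the replicates over these genes was 0.06, and at 2 h 0.20. The 4 h count was 1 without the 4 h array of replicate 2, 105 without that of replicate 1, and 21 and 20 without the 2 h arrays of replicate 1 and 2.

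Genes for meiotic recombination and chromosome axes rose. All 34 early meiotic genes were higher on both 6 h arrays than on both 2 h arrays, a separation seen in this direction for 28.7% of all genes. The list had a median log2 change of 1.39, against -0.01 over all genes, and 73.5% of it was called higher, where 5.71% of all genes were. Of the 25 called, 15 were called with each array left out in turn. Without the 2 h array of replicate 1 the count was 15.

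*REC114*, whose product is part of the machinery that makes meiotic double-strand breaks, was at 0.56 and 1.01 at 6 h, against -1.96 and -1.58 at 2 h. The arrays of the times did not overlap, and the 4 h arrays lay between them at -0.32 and 0.51. The change was 2.55 ± 0.35 (SE), or 5.86-fold, with an adjusted p of 0.000756. *SPO22*, also known as ZIP4 and needed for crossovers, stood at 2.86 and 2.92 at 6 h, against 0.29 and 0.70 at 2 h, with a change of 2.39 ± 0.26 and an adjusted p of 0.000254. *SPO16*, which works in the same crossover pathway, stood at 1.15 and 1.05 at 6 h, against -1.31 and -0.88 at 2 h. Its change of 2.19 ± 0.28 had an adjusted p of 0.000502. For both genes the 6 h arrays were close together and lay far above those of 2 h.

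*REC8*, the meiotic kleisin of cohesin, reached 1.93 and 2.19 at 6 h, against -0.04 and 0.19 at 2 h, a rise of 1.99 ± 0.27 with an adjusted p of 0.000756. Its 4 h arrays, at 1.37 and 1.87, were already above both 2 h arrays, and the 4 h change was called with an adjusted p of 0.016. *MEK1*, a kinase of the chromosome axis that steers repair to the homolog, rose by 1.92. *MSH4* and *MSH5*, which form a crossover complex, rose by 1.79 each. These genes, like *ECM11* (2.14) and *MEI5* (2.01), were called in every fit with 1 array left out. *ECM11* acts in the central region of the synaptonemal complex and *MEI5* helps to load the strand exchange protein Dmc1.

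Other genes of the list had smaller changes. *HOP1*, an axis protein, was at 3.19 and 3.28 at 6 h, against 1.71 and 2.15 at 2 h, and *ZIP1*, the transverse filament protein, at 1.73 and 1.80 at 6 h, against 0.42 and 0.63 at 2 h. Their changes were 1.31 (adjusted p 0.0242) and 1.24 (adjusted p 0.0103), and neither gene overlapped between the times. *HOP1* was called in 0 and *ZIP1* in 1 of the 4 fits with 1 array left out. *DMC1*, already among the high signals at 4.17 and 4.14 at 2 h, stood at 5.17 and 4.85 at 6 h, a change of 0.85 with an adjusted p of 0.0392 that was also called in 0 of these fits. *RED1*, the partner of Hop1 on the axis, changed by 1.28 with a wider spread between replicates and an adjusted p of 0.0715. *SPO11*, which cuts the DNA, changed by 1.14 with an adjusted p of 0.115. The other 7 that did not pass were *NDJ1*, *REC104*, *PCH2*, *SKI8*, *CST9*, *MLH2* and *SPO1*, with changes between 0.18 and 1.06.

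**Figure D1:**
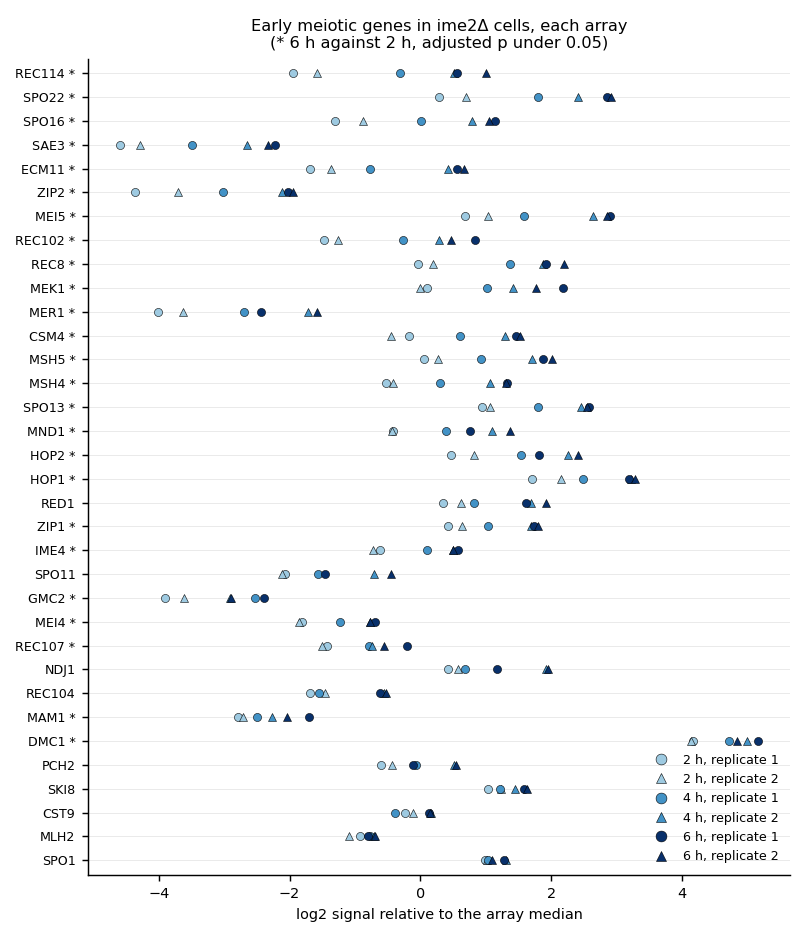
Log2 signal relative to the array median (horizontal axis) of the 34 early meiotic genes in ime2Δ cells, with genes ordered by their change. Each point is 1 array, coloured by time (light at 2 h, dark at 6 h), with circles for replicate 1 and triangles for replicate 2, and an asterisk marks the 25 genes called at 6 h against 2 h. In all 34 genes both dark points lie to the right of both light ones.

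Most regulators of meiotic entry did not pass. Of 20 on the list 3 (15%) rose, where 5.71% of all genes did, and 0 fell. The 3 were genes of the mRNA methylation complex, and the list had a median of 0.15. *IME1*, the activator of the early genes, was at 5.16 and 5.10 at 6 h, against 4.54 and 4.39 at 2 h. Both 6 h arrays were higher than both 2 h arrays, but the change of 0.67 had an adjusted p of 0.0758. In WT cells *IME1* was at 4.30 and 4.24 at 6 h, against 4.45 and 4.52 at 2 h, and the changes differed by 0.88 between strains, with an adjusted p of 0.0337. This call was lost under normexp background correction and when any 1 of the 8 arrays was left out, with adjusted p up to 0.0944. *RIM4*, which encodes an RNA-binding protein that holds back translation, changed by 0.39 (adjusted p 0.325). *SIC1*, the inhibitor of S phase cyclin-Cdk1, stood at 0.08 and -0.61 at 6 h, against 0.45 and -0.03 at 2 h. The times overlapped, and the change of -0.47 had an adjusted p of 0.306. *CLB5*, the S phase cyclin, was at 1.43 and 1.37 at 6 h, against -0.26 and 0.31 at 2 h, a rise of 1.37 ± 0.38 with an adjusted p of 0.0399 that was not called when any of the 4 arrays was left out.

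Genes of the mRNA methylation complex rose with the early genes. Of 9 genes for mRNA methylation and meiotic RNA control, some of them also on the early meiotic list, 7 rose and 0 fell, with a median change of 1.10, and 3 of the 7 were called in every fit with 1 array left out. Without the 2 h array of replicate 1 the count was 3, without that of replicate 2 it was 4, and without the 6 h array of replicate 2 it was 3. With all arrays the 7 rises were 77.8% of the list, where 5.71% of all genes rose. *IME4*, the N6-adenosine methyltransferase, stood at 0.57 and 0.50 at 6 h, against -0.61 and -0.73 at 2 h. *SLZ1*, a subunit of the same complex, was at 3.52 and 3.38 at 6 h, against 1.67 and 1.62 at 2 h. The changes of 1.20 (adjusted p 0.00127) and 1.81 (adjusted p 0.000511) were far larger than the spread between replicates. *MUM2*, the third subunit, rose by 0.84. *MER1*, a meiotic splicing factor, rose by 1.82 with an adjusted p of 0.0215, and *AMA1*, a meiotic activator of the anaphase promoting complex and a target of Mer1-dependent splicing, by 1.75 with an adjusted p of 0.013. With 1 array left out *MER1* was called in 1 and *AMA1* in 0 of 4 fits.

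Some cohesin and DNA replication genes rose in *ime2Δ* cells over an interval in which 39 of 65 replication genes fell and 7 rose in WT cells, where 32.5% of all genes fell. Of the 16 cohesin and shugoshin genes 7 fell and 5 rose in WT cells, where 32.5% of all genes fell and 30.4% rose. Some of the 16, such as *REC8*, are also on the early meiotic list, so the lists are not separate. In *ime2Δ* cells 8 of the 16 (50%) rose, where 5.71% of all genes did, and 0 fell. The median change was 0.81, against -0.31 in WT cells. *SMC3*, a core ATPase of the ring, was at 1.77 and 2.19 at 6 h, against 0.82 and 1.24 at 2 h. In WT cells it was at 1.24 and 1.13 at 6 h, against 2.92 and 3.19 at 2 h. The changes differed by 2.83 between strains, with an adjusted p of 1.95e-05. *SMC1*, *PDS5* and *SCC2*, the other ATPase, a regulator and the loader of the ring, rose by 0.83, 0.83 and 1.21. Of the 8, 1 (*REC8*) was called in every fit with 1 array left out, and the count was 2 and 3 without the 2 h arrays of replicate 1 and 2, and 4 and 2 without the 6 h arrays.

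Of 65 replication genes 11 (16.9%) rose, where 5.71% of all genes did, and 0 fell. The median was 0.31 in *ime2Δ* cells, against -0.77 in WT cells. *POL1*, the catalytic subunit of the primase-linked polymerase, was at 0.77 and 0.74 at 6 h, against -0.05 and 0.09 at 2 h. In WT cells it stood at -0.55 and -0.23 at 6 h, against 2.08 and 2.05 at 2 h. The 2 strains thus moved in opposite directions, by 0.74 and -2.45, and the difference of 3.19 had an adjusted p of 5.49e-07. *RNR1*, the large subunit of ribonucleotide reductase, was at 0.69 and 1.08 at 6 h, against -0.01 and 0.04 at 2 h, a rise of 0.87 beside a change of -2.49 in WT cells. *DUT1* (dUTPase) and *POL30* (the sliding clamp) rose by 0.88 and 0.77. *MCM5*, a subunit of the replicative helicase, rose by 1.10 with an adjusted p of 0.00645. None of the 11 was called in all 4 fits with 1 array left out, and the count was 0 and 3 without the 2 h arrays of replicate 1 and 2, and 3 without either 6 h array.

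Targets of the cell cycle factor MBF, which the study listed, include some of these genes. In dividing cells MBF and the related factor SBF switch on genes of the G1/S transition. Of 111 MBF targets 21 rose and 1 fell, with a median of 0.33 in *ime2Δ* cells, against -0.84 in WT cells, and 1 of the 21 was called in every fit with 1 array left out. The count was 2 and 3 without the 2 h arrays, and 5 without either 6 h array. The call that held was that of *SPO16*, which is also on the early meiotic list and had the largest rise of the 111. Of the 110 targets not on the early list 20 rose, by at most 1.37. The 21 rises were 18.9% of the MBF list, where 5.71% of all genes rose. Of 94 SBF targets 12 (12.8%) rose and 8 (8.51%) fell, where 4.29% of all genes fell, and the median was 0.08. The lists share 36 targets, and with 1 array left out the SBF rises numbered between 1 and 3 and the falls between 2 and 7. *HTB2*, which encodes a copy of histone H2B, was the SBF target with the largest rise, at 1.12 and 1.27 at 6 h, against -0.49 and -0.20 at 2 h. It was the 1 of 11 histone genes to pass, with a rise of 1.54 ± 0.32 (adjusted p 0.0098) beside a fall of 1.61 in WT cells, and it was called in 2 of 4 fits with 1 array left out. The SBF targets that fell the most were *CIS3* and *SRL1*, which encode cell wall proteins, *TOS6* and *TOS1*.

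**Figure D2:**
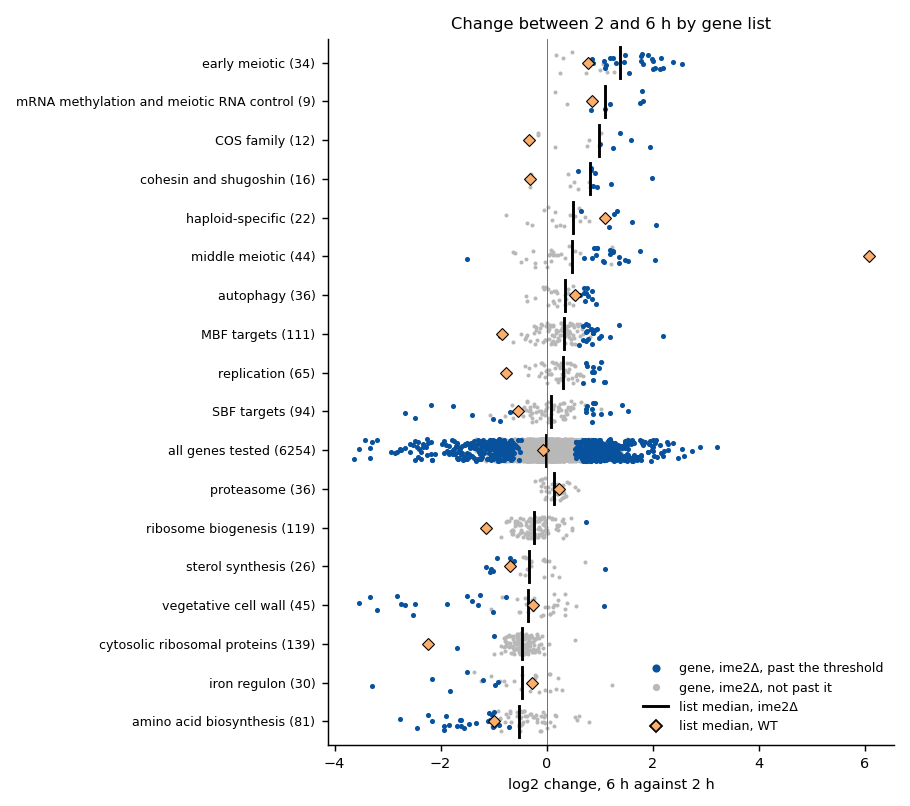
Log2 change at 6 h against 2 h (horizontal axis) by gene list, with the number of genes in brackets. Each point is 1 gene in ime2Δ cells (blue where called, grey where not), black bars are list medians in ime2Δ cells and diamonds list medians in WT cells. The early meiotic median lies at 1.39 in ime2Δ cells, against 0.78 in WT cells, and the middle meiotic median at 0.49, against 6.07 in WT cells.

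*NDT80* did not pass, and a minority of the middle genes rose. *NDT80* was at -0.37 and -0.90 at 6 h, against -0.92 and -1.17 at 2 h, a change of 0.41 with an adjusted p of 0.393. In WT cells it was at 5.11 and 5.14 at 6 h, against -0.32 and -0.57 at 2 h. Of 44 middle genes 18 (40.9%) rose and 1 (2.27%) fell, where 5.71% of all genes rose and 4.29% fell. The median change was 0.49 in *ime2Δ* cells, against 6.07 in WT cells. At 6 h the median level of the 44 was -3.08 in *ime2Δ* cells and 4.69 in WT cells. The difference in the change was called lower in *ime2Δ* cells for 42 of them, where it was for 24.8% of all genes. The count of rises was between 6 and 8 with 1 array left out (6 without the 2 h array of replicate 1, 7 without the 6 h array of replicate 1), and 5 of the 18 were called in each of these fits.

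*ADY3*, whose product sits at the leading edge of the growing spore membrane, had the largest rise on the list. It was at 0.98 on both 6 h arrays, against -1.10 and -1.01 at 2 h, a change of 2.04 ± 0.19 with an adjusted p of 0.000144. In WT cells the change was 4.17, and the difference of -2.13 had an adjusted p of 5.32e-05. *CDA1*, a chitin deacetylase of the spore wall, was at -3.06 and -3.12 at 6 h, against -4.51 and -4.72 at 2 h. *SPR3*, a sporulation septin, was at -3.87 and -3.78 at 6 h, against -5.37 and -5.22 at 2 h. Both rose above the spread between replicates, by 1.53 and 1.47, at signals far below the array median. *SPR3* was called in every fit with 1 array left out and *CDA1* in none. *SMK1*, the spore wall kinase, was at -8.63 and -8.40 at 6 h, against -8.14 and -8.37 at 2 h, while WT cells had 4.46 and 4.65 at 6 h, against -3.29 and -3.46 at 2 h.

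*CLB1*, an M phase cyclin that is a middle gene in meiosis, was the 1 member that fell. It was at -2.97 and -3.33 at 6 h, against -1.25 and -2.05 at 2 h, a change of -1.50 with an adjusted p of 0.00261. In WT cells it was at 3.82 and 4.16 at 6 h, against -2.44 and -2.45 at 2 h, so at 2 h both arrays of the deletion lay above both of WT. None of the 5 late spore wall genes passed in *ime2Δ* cells, where *SPS100* had the largest change, 1.22 with an adjusted p of 0.0629.

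**Figure D3:**
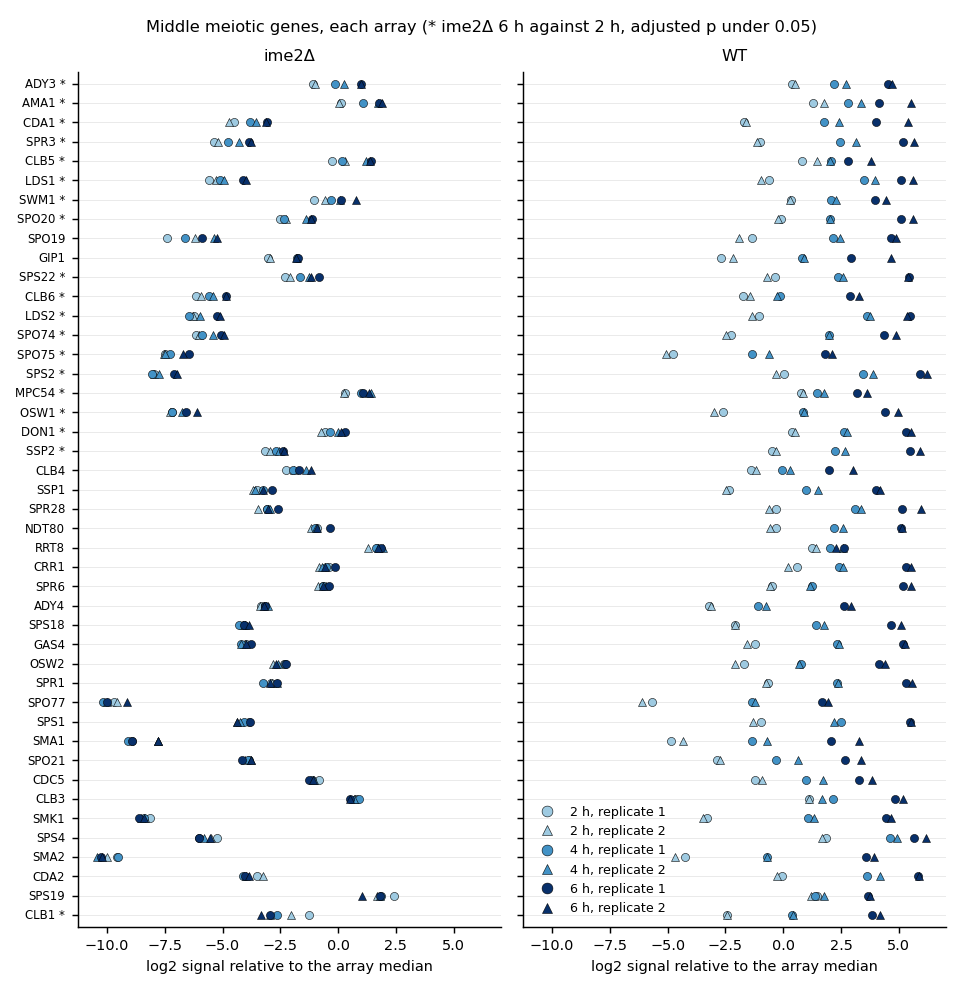
Log2 signal relative to the array median (horizontal axes, same scale) of the 44 middle meiotic genes on each array of ime2Δ cells (left) and WT cells (right), with time by colour and replicate by symbol. Asterisks mark the 19 genes called in ime2Δ cells at 6 h against 2 h. At 6 h the median level over the genes was -3.08 in ime2Δ cells and 4.69 in WT cells.

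Amino acid biosynthesis genes fell, mainly those of sulfur. Of 81 genes 24 (29.6%) fell, where 4.29% of all genes did, and 0 rose, with a median change of -0.52. Split after the values were seen, 14 of 17 genes for sulfur assimilation, methionine and cysteine fell, with a median of -1.64, while 10 of the other 64 fell, with a median of -0.46. *MET17*, which builds homocysteine from sulfide, was at 1.34 and 1.99 at 6 h, against 4.30 and 4.55 at 2 h. The 4 h arrays were already low at 2.31 and 2.25, and the change by 6 h was -2.76 ± 0.32 with an adjusted p of 0.000358. *SAM2*, an S-adenosylmethionine synthetase, was at 0.70 and 1.58 at 6 h, against 3.47 and 3.72 at 2 h, a fall of 2.45 with an adjusted p of 0.000207. In WT cells *MET17* and *SAM2* fell by 2.89 and 2.17, and the differences between the strains did not pass (adjusted p 0.827 and 0.523).

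The first steps of sulfate activation differed between the strains. *MET3*, ATP sulfurylase, was at 0.67 and 0.57 at 6 h, against 2.67 and 2.88 at 2 h, and in WT cells at 0.07 and -0.04 at 6 h, against 0.65 and 0.71 at 2 h. The change of -2.16 differed from that in WT cells by -1.49 (adjusted p 0.00272), after higher levels at 2 h. *MET14*, the kinase of the next step, fell by 2.24, and the difference from WT cells was -1.99 with an adjusted p of 0.0106. Outside the list, and named after their values were seen, the sulfate permease gene *SUL2* fell by 2.48 and the S-methylmethionine permease gene *MMP1* by 2.41, with adjusted p of 0.00106 and 0.000254. Of the other amino acid genes *ARG56*, whose product makes 2 enzymes of arginine synthesis, fell by 1.93 and *ARO1*, of aromatic synthesis, by 1.34. The list's count was 14 without the 2 h array of replicate 2 and 15 without the 6 h array of replicate 1, and 14 of the 24 falls were called in every such fit.

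Genes for cell separation fell steeply. Of 45 vegetative cell wall genes 15 fell and 1 rose, with a median of -0.35, and 11 of the 15 were called with each array left out. The falls were 33.3% of the list and the rise 2.22%, where 4.29% of all genes fell and 5.71% rose. The 7 genes that digest or mark the septum between mother and daughter cell, grouped after their values were seen, all fell, by a median of 2.81. *DSE4*, an endoglucanase made in daughter cells, was at -3.09 and -3.92 at 6 h, against 0.33 and -0.27 at 2 h, a change of -3.53 ± 0.36 with an adjusted p of 0.000207. *EGT2*, needed for correct separation, was at -1.62 and -2.58 at 6 h, against 1.61 and 0.87 at 2 h. *DSE1*, a daughter-specific gene, was at -2.36 and -2.76 at 6 h, against 0.82 and 0.44 at 2 h. None of the 3 overlapped between the times, and in each the 4 h arrays lay between.

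In WT cells the 7 genes had a median change of -1.15. *DSE4* and *EGT2* were already low there at 2 h, with *DSE4* at -1.82 and -1.95 and *EGT2* at -0.97 and -1.25. The changes of *DSE4*, *EGT2* and *DSE1* in WT cells, -0.73, 0.56 and -0.26, did not pass, and the differences from WT cells were -2.80, -3.90 and -2.93 (adjusted p 0.000747, 0.000112 and 3.69e-05). *DSE2*, another daughter-specific gene, fell by 2.81 in *ime2Δ* cells and by 1.58 in WT cells. *CTS1*, the chitinase of the septum, and *SCW11*, a glucanase-like protein, fell by 1.51 and 1.42 in *ime2Δ* cells and by 1.20 and 1.15 in WT cells, with no difference past the threshold.

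Some wall genes moved in opposite directions in the 2 strains. *CIS3* was at -0.78 and -0.37 at 6 h, against 2.44 and 1.76 at 2 h, in *ime2Δ* cells, and at 3.31 and 3.68 at 6 h, against 1.03 and 0.94 at 2 h, in WT cells. *CWP1*, a mannoprotein, was at 1.56 and 1.16 at 6 h, against 3.54 and 2.96 at 2 h, in *ime2Δ* cells, and at 5.66 and 5.96 at 6 h, against 1.50 and 0.90 at 2 h, in WT cells. The differences in the change were -5.18 (adjusted p 1.64e-07) and -6.50 (adjusted p 1.67e-08). *SRL1*, another wall mannoprotein, fell by 2.48 in *ime2Δ* cells, where the change in WT cells was 0.78 and did not pass.

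Some flocculin genes, and ORFs related to them, fell. These were named after their values were seen. *FLO9* was at 0.23 and 0.14 at 6 h, against 3.02 and 2.90 at 2 h, and *FLO1* at -3.12 and -3.33 at 6 h, against -0.26 and -0.69 at 2 h. *FLO5* fell by 2.26 and the related ORFs *YHR213W*, *YAR062W* and *YAL065C* by 3.42, 3.34 and 2.93. These sequences are near copies of one another, so the probes may share signal and the genes cannot be counted as separate. All 6 were called in every fit with 1 array left out. *FLO10* and *FLO11*, other members of the family, changed by 0.07 and -0.06 with adjusted p of 0.842 and 0.834.

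**Figure D4:**
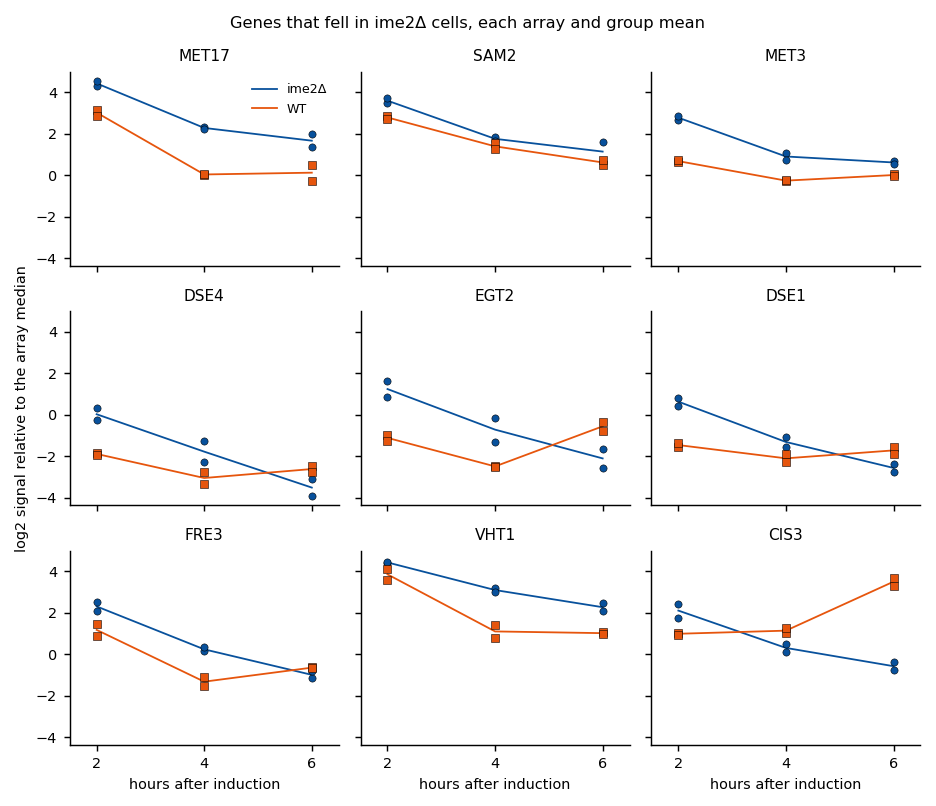
Log2 signal relative to the array median (vertical axes, same scale) at 2, 4 and 6 h for 9 genes that fell in ime2Δ cells, with each array as a point and the group mean as a line, ime2Δ in blue and WT in orange. The top row holds sulfur genes, the middle row cell separation genes, and the bottom row FRE3, VHT1 and CIS3. For CIS3 the ime2Δ arrays fell to -0.78 and -0.37 at 6 h, while WT arrays reached 3.31 and 3.68.

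Some genes of the iron regulon fell, led by *FRE3*. Of 30 genes 7 (23.3%) fell, where 4.29% of all genes did, and 0 rose, with a median of -0.47. *FRE3*, a reductase of iron bound to siderophores, was at -1.15 and -0.83 at 6 h, against 2.07 and 2.54 at 2 h, a change of -3.29 ± 0.27 with an adjusted p of 4.86e-05. *VHT1*, a biotin transporter under the same control, was at 2.46 and 2.07 at 6 h, against 4.41 and 4.43 at 2 h, a fall of 2.15. Both were called in every fit with 1 array left out. *FIT1* and *FIT2*, wall proteins that retain siderophores, fell by 1.82 and 1.50 but were called in none of these fits. The count for the list was 2 and 3 without the 2 h arrays of replicate 1 and 2, and 2 and 4 without the 6 h arrays.

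In sterol synthesis 7 of 26 genes fell and 1 rose, and with 1 array left out between 2 and 3 fell. With all arrays the falls were 26.9% of the list and the rise 3.85%, where 4.29% of all genes fell and 5.71% rose. *ERG20* and *ERG9*, of farnesyl and squalene synthesis, fell by 1.14 and 1.06. The isozymes of HMG-CoA reductase moved apart. *HMG1* was at 2.00 and 1.84 at 6 h, against 2.95 and 2.99 at 2 h, and *HMG2* at 3.90 and 3.70 at 6 h, against 2.73 and 2.68 at 2 h, with changes of -1.05 (adjusted p 0.0166) and 1.09 (adjusted p 0.00261). Neither overlapped between the times, and *HMG2* but not *HMG1* was called in every fit with 1 array left out. Of 21 glycolytic and fermentation genes 3 fell, *GLK1*, *HXK2* and *PFK2*, with a list median of -0.46, and the count was 0 without either the 2 h or the 6 h array of replicate 1, 1 without the 2 h array of replicate 2 and 2 without the 6 h array of replicate 2.

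Few genes for growth passed in *ime2Δ* cells. Of 139 cytosolic ribosomal protein genes 2 fell (*RPS9A* and *ASC1*) and 0 rose, with a median of -0.46 in *ime2Δ* cells, against -2.25 in WT cells. Both 6 h arrays lay below both 2 h arrays for 74.1% of these genes, where 27.1% of all genes did so. The ribosome biogenesis list had a median of -0.24, with 1 rise and 0 falls among 119 genes. The rise was that of *DBP1*, which encodes a helicase of translation initiation rather than a ribosome assembly factor. Its call was lost in the fit to the compared groups alone. None of the genes for the proteasome (36), the TCA cycle (19), mitochondrial ribosomes (70) or vacuolar proteases (10) passed, and their medians lay between -0.14 and 0.13. Over all genes 9.99% were called in limma, and 24.9% had an unadjusted p under 0.05.

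Some transcripts known from haploid cells rose, 27.3% of those listed, where 5.71% of all genes did, and 16 did not pass. Of 22 haploid-specific genes 6 rose and 0 fell, with a median of 0.49 in *ime2Δ* cells, against 1.10 in WT cells, and 4 of the 6 were called in every fit with 1 array left out. *MFA2*, a gene for the a-factor pheromone, was at -2.69 and -2.72 at 6 h, against -4.73 and -4.79 at 2 h. *AXL1*, a protease that matures a-factor, was at -1.49 and -1.26 at 6 h, against -3.28 and -2.69 at 2 h. The changes were 2.06 (adjusted p 0.0035) and 1.61 (adjusted p 0.00261), and both genes were also higher at 6 h in WT cells, with no difference between the strains past the threshold. *GPA1*, the G protein subunit of the pheromone pathway, rose by 1.18 where WT cells fell by 0.69, a difference of 1.87 with an adjusted p of 7.71e-05. More of the 22 genes went the other way. The difference in the change was called lower in *ime2Δ* cells for 9 (24.8% of all genes), higher for 3 (23.4% of all genes) and not called for 10. *STE18* and *STE3* rose by 7.63 and 3.49 in WT cells, while their changes of 0.80 and 0.32 in *ime2Δ* cells did not pass. The haploid markers summed above include *MFA1*, *MFA2* and *GPA1*, so their sum is not a separate measurement.

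Some autophagy genes and members of the subtelomeric COS family also rose. Of 36 autophagy genes 10 (27.8%) rose, where 5.71% of all genes did, and 0 fell. The rises were led by *ATG8*, the ubiquitin-like protein of the autophagosome membrane, at 4.07 and 3.68 at 6 h, against 2.92 and 2.97 at 2 h. Its rise of 0.93 was the 1 call of the list that held in every fit with 1 array left out, and it was smaller than in WT cells by 1.25 (adjusted p 0.00102), a difference that did not pass under quantile normalization (adjusted p 0.0571). The list's count was 2 and 1 without the 2 h arrays of replicate 1 and 2, and 1 and 4 without the 6 h arrays. Of 12 COS genes 5 (41.7%) rose and 0 fell, with *COS8* at 1.23 and 0.93 at 6 h, against -0.57 and -1.17 at 2 h. The COS genes are near copies, their rises may share signal between probes, and the count was 1 without the 6 h array of replicate 1 or the 2 h array of replicate 2.

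*UGA4*, the permease for gamma-aminobutyrate, was at 1.48 and 1.44 at 6 h, against -0.52 and -0.38 at 2 h, and *CAR1*, arginase, at 4.97 and 4.90 at 6 h, against 3.97 and 3.96 at 2 h. These were 2 of the 3 genes to rise among 30 under nitrogen catabolite repression, the other being *DUR12*, urea amidolyase. A share of 3 in 30 is not far from the 5.71% of all genes, 0 of the 30 fell, and the median change was -0.06, with 12 genes higher and 13 lower in both replicate numbers. In WT cells *UGA4* and *CAR1* fell, by 0.66 and 0.72, and the differences of 2.57 and 1.69 had adjusted p of 5.48e-05 and 1.86e-05.

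The largest single rise was that of *GAT3*, a zinc finger protein of the GATA family, at a very low signal. It was at -5.75 and -5.65 at 6 h, against -9.18 and -8.65 at 2 h, a change of 3.21 ± 0.56 (adjusted p 0.0035), and in WT cells it was at 2.12 and 3.07 at 6 h. *RNP1*, an RNA-binding protein, was at 3.27 and 2.97 at 6 h, against 0.29 and 0.76 at 2 h, a rise of 2.60. *YGR190C*, *YIL025C*, *YKR005C* and *RRT7* rose by 2.90, 2.74, 2.29 and 2.29, and *CSS3* and *VEL1* by 2.48 and 2.28. These genes were called under every alternative tried, except that *CSS3* was not in the fit to the compared groups alone (adjusted p 0.0503). The largest fall was that of *SEO1*, a putative permease, at 0.17 and -0.01 at 6 h, against 3.62 and 3.81 at 2 h. Most of its change of -3.64 ± 0.24 (adjusted p 1.2e-05) was made by 4 h, when the arrays stood at 0.83 and 0.33, and WT cells rose by 1.59.

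The change from 2 to 6 h differed between the strains for 3017 genes (48.2%), with 1463 (23.4%) higher and 1554 (24.8%) lower in *ime2Δ* cells than in WT cells. Of the 357 genes that rose in *ime2Δ* cells, 190 also rose in WT cells, 44 fell there and 123 did not pass, and the difference was called for 221. Of the 268 that fell, 130 also fell in WT cells, 68 rose there and 70 did not pass, and the difference was called for 149. Genes picked for called changes in opposite directions will nearly always have a called difference, and all 44 and all 68 did, so this adds no separate support.

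Most early meiotic genes had lower means in *ime2Δ* cells at both ends of the interval, which was not tested. At 2 h the mean of 33 of 34 early genes was lower in *ime2Δ* cells than in WT cells, by a median of 1.35. At 6 h that of 27 was lower, by a median of 0.60. The share of all genes with lower means was not counted. Levels compared between strains depend on the scaling: 75th percentile scaling moved the difference in the change by a median of 0.31 over all genes. *REC8* changed by 1.99 in *ime2Δ* cells and by -0.39 in WT cells, where it was at 1.77 and 1.26 at 6 h, against 1.87 and 1.94 at 2 h, and the difference of 2.38 had an adjusted p of 0.000332. Over the 34 genes the difference in the change was called higher in *ime2Δ* cells for 12 (23.4% of all genes), lower for 2 (24.8% of all genes) and not called for 20. *MAM1*, a monopolin subunit that holds sister kinetochores together, went the other way, with a rise of 0.88 beside one of 5.53 in WT cells.

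**Figure D5:**
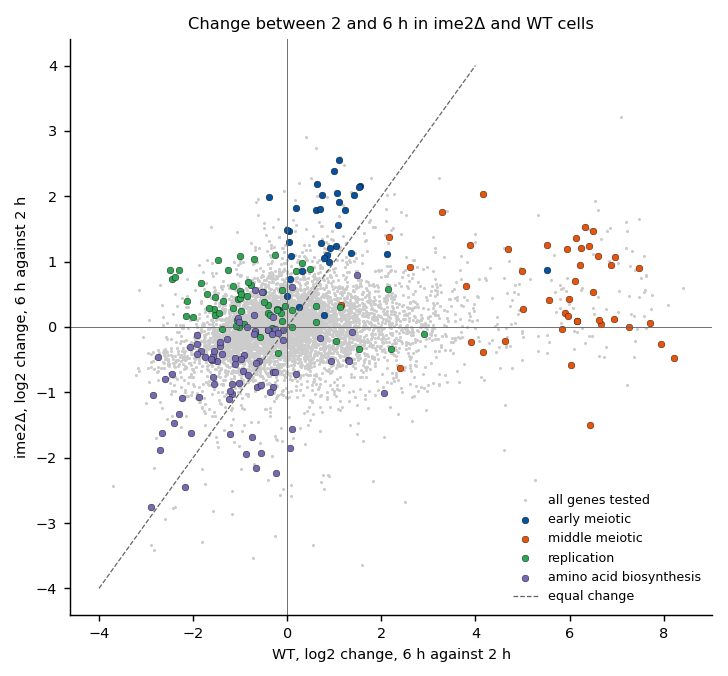
Log2 change at 6 h against 2 h in ime2Δ cells (vertical axis) and in WT cells (horizontal axis) for 6254 genes (grey), with 4 gene lists in colour and a dashed line of equal change. The middle meiotic genes lie far to the right, with medians of 0.49 in ime2Δ cells and 6.07 in WT cells, and the replication genes have medians of 0.31 in ime2Δ cells and -0.77 in WT cells.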

How the data were processed

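Total RNA from WT and *ime2Δ* cells at 0, 2, 4 and 6 h was amplified, labelled with 1 dye (Alexa555) and hybridized to 60-mer Agilent yeast arrays, 16 arrays in 8 groups of 2. Per the labels and the file headers, Agilent Feature Extraction 10.7.1.1 gave the deposited intensity, the background-corrected processed signal of each spot. The authors also deposited a table of log2 values scaled to the array median, which was used as an alternative only. Non-uniform and population outlier spots (0 to 13 an array) were left out, the 2 spots of a probe were averaged as log2 of the processed signal, and the array median was subtracted. Of 6256 genes 5756 were matched by locus tag to a RefSeq table of gene names and 500 kept their systematic names. No gene was saturated. The number of arrays limits the precision. The median processed signal ranged between 7582.1 and 14906 over the arrays.

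Contrasts were fitted by lmFit and eBayes of limma 3.58.1 (R 4.3.3) over all 16 arrays with a mean for each group, which left 8 residual degrees of freedom, and p-values were adjusted over 6254 genes by the Benjamini-Hochberg method. The difference between strains was the interaction, *ime2Δ* minus WT, of the change at 6 h against 2 h. The script was tested on simulated data with independent noise, where 200 of 6254 genes were changed in *ime2Δ* cells at 6 h. With a log2 change of 1, 61% of these were called for 6 h against 2 h and 7% for the difference between strains. With a log2 change of 2 the shares were 97.5% and 84.5%. Members of gene lists, and the lists themselves, were chosen with earlier results of these data known, so lists are described by counts and medians with no test. Genes were named by a rule: the 10 highest and 10 lowest called changes, up to 4 called members and 1 other of each list, the 5 highest and 5 lowest differences between strains, and *IME1*, *NDT80*, *CLB5*, *SIC1* and *RIM4*. Others, such as *MEK1*, *MSH4*, *MSH5* and the other flocculin genes, were named after their values were seen. Alternatives were 75th percentile and quantile scaling, normexp background correction with an offset of 50 (on median spot signals, since mean spot signals were not used here), the deposited log2 table, no dim probes, no spots left out, a fit to the compared groups, a robust trended prior, a log2 change of at least 1, the replicate number as a block, and each array left out. The replicate number is also the slide. Deviations of same-numbered arrays from their group means correlated at 0.0754 to 0.535 over 28 pairs of groups (0.335 to 0.535 among the *ime2Δ* groups at 2, 4 and 6 h). Some items are not reported here.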

Additional observations from a re-analysis of the deposited data

Results flagged for a closer look

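The change between 2 and 6 h differed between the strains by the limma interaction test for 1463 genes with a higher and 1554 with a lower change in *ime2Δ* cells than in WT cells. The lowest differences among genes changed the same way in both replicate numbers were those of *SMA2* (-8.70), *SMK1* (-8.19), *UBC11* (-8.11), *CLB1* (-7.94) and *YKR033C* (-7.82). *SMA2* was not well above background on either 6 h array of *ime2Δ* cells and *YKR033C* on none of the 6 *ime2Δ* arrays, so these fitted differences depend on signals near background. The highest differences were those of *YDL187C* (3.72), *RNR1* (3.36), YMR304C-A (3.36), *POL1* (3.19) and *DUT1* (3.17), of which *RNR1*, *POL1* and *DUT1* serve DNA synthesis.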

How the results depend on the processing

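For 6 h against 2 h in *ime2Δ* cells, 625 genes were called, 971 with the replicate block, 308 in the fit to the compared groups alone and 325 with a log2 change of at least 1, and between 223 and 406 with 1 array left out. The other alternatives gave between 460 and 699. For 4 h against 2 h the count of 86 became 142 with the replicate block and 2 in the fit to the compared groups alone, and lay between 1 and 105 with 1 array left out. For 6 h against 4 h limma called 0 genes, and 1 with the replicate block. The difference between the strains was called for between 2387 and 3057 genes with 1 array left out, against 3017 with all arrays, and for 3396 with the replicate block. Under 75th percentile scaling 63.9% of these differences were higher in *ime2Δ* cells than in WT cells, and under quantile normalization 58.1%, against 48.5% under median scaling, and these scalings moved the median difference of all genes by 0.31 and 0.15. No named gene changed direction while called. Among named genes, 236 of the values for 6 h against 2 h lost and 44 gained a call under an alternative, and 131 and 44 of the differences between strains did. Same-numbered arrays share a slide, and their deviations correlated positively in all 28 pairs of groups. The highest correlation, 0.535, was between *ime2Δ* cells at 2 and 6 h, the groups of the main comparison. The study's methods state no block, so the main fit leaves this pairing out and the block is given as an alternative. Promoter motifs were not run. The cause of these changes was not tested. With 2 arrays a group, small changes may be missed, and in the simulated data most differences between strains of a log2 of 1 were.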
